A study of Drosophila melanogaster with 4 samples.

Results

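TCF occupancy was described at the loci of SoxN and D, the genes for the Sox proteins SoxNeuro and Dichaete, in Drosophila melanogaster embryos. Members were the TCF peaks whose midpoint lay on 2L from 8800000 to 8850000, named here the SoxN window, or on 3L from 14120000 to 14200000, the D window, on FlyBase release 5. The rule found 4 peaks in the SoxN window and 9 in the D window, 13 of the 4589 peaks in the list. The rule used position and no measured value.

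The study asked where TCF, the protein of the gene pangolin, binds chromatin, by ChIP-seq, in which DNA recovered with an antibody from cross-linked chromatin is sequenced. The labels list 2 ChIP libraries, made with a crude rabbit polyclonal serum raised against the TCF N-terminus, and 2 input libraries of chromatin DNA. All 4 came from whole embryos of the strain Y cn bw sp, labelled 0 to 8 h and of unknown sex, with no added treatment in the labels. The protocol text of the 4 libraries describes an egg laying of 8 to 16 h, which does not match the stage label, and the labelled stage is used here. Both groups share 1 genotype: the alleles y[1] and oc[R3.2], then Gr22b[1] and Gr22d[1] with cn[1], CG33964[R4.2], and bw[1] as well as sp[1], and finally LysC[1] and lab[R4.2] with MstProx[1], GstD5[1] and also Rh6[1]. The deposited values are 1 peak list for the whole series, with 1 score per peak. No value has a replicate error, the depth of the libraries is unknown, and no difference between loci could be tested over samples. In whole embryos, more TCF per cell and more cells with TCF at a site cannot be told apart.

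SoxN and D belong to Sox group B, a family of transcription factors that bind and bend DNA through an HMG domain. TCF carries an HMG domain as well, and it switches Wingless (Wnt) target genes off with the corepressor Groucho or on with the coactivator Armadillo. SoxN and D are both expressed in the early neuroectoderm, where they act partly redundantly in forming the central nervous system. D also acts in segmentation of the blastoderm embryo, and SoxN is known to limit Wingless signalling in the embryonic epidermis.

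By gene order in a table on another release, release 6, the loci had different surroundings. SoxN was followed by the non-coding RNA genes lncRNA:CR45365 and asRNA:CR45260 and by the protein-coding CG32986, and preceded by CG42710 and the predicted lysosomal mannosidase genes LManVI and LManV. D was preceded by lncRNA:CR45887 and then by Sox21b and Sox21a, so 3 group B Sox genes were neighbours on 3L. It was followed by nan, which encodes a TRP channel of hearing organs, by nuf, which encodes a Rab11 effector of membrane traffic, and by saturn. Because the table and the peak list are on different releases, no peak below is placed in a gene, intron or promoter. A peak of the SoxN window need not belong to SoxN, and a peak of the D window need not belong to D.

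At SoxN, TCF was called at 4 places, of which 1 stood above the rest. In order along 2L, the scores were 13.69, 23.07, 53.19 and 15.60. The authors' score equals -log10 of a Poisson upper tail at a whole-number pileup for most of the list, with a fitted expected pileup of 71.7, so a pileup and its fold over that expectation can be read from it. All 13 members were on that scale. The strongest SoxN peak, at 8841319 to 8842361, had a pileup of 238, which is 3.32-fold over the expectation (95% exact Poisson interval 2.91 to 3.77). The peak at 8825360 to 8825885 followed with 2.40-fold (2.05 to 2.78), and those at 8846587 to 8847260 and 8809763 to 8810219 reached 2.11-fold (1.78 to 2.47) and 2.02-fold (1.71 to 2.38). The interval of the strongest peak, which was picked by the same score, lay above those of the other 3, which overlapped one another. These intervals cover counting error only, the fold is over 1 value for the genome and not over the input at the place, and the pileup is high by selection, since peaks are called where it is high.

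The D locus held the strongest TCF peak of both loci, at 14159015 to 14160179 on 3L. It had a score of 134.25 and a pileup of 368, or 5.13-fold over the expectation (95% exact Poisson interval 4.62 to 5.68). It ranked 241 of all 4589 peaks, and on 3L no peak of equal or higher score lay within 246 kb to its left or 446 kb to its right. The next peak of the locus, at 14183960 to 14184882, had a score of 32.94 and 2.73-fold (2.36 to 3.14). Of the remaining peaks, the one at 14187258 to 14187793, with a score of 21.56 and 2.34-fold (2.00 to 2.72), lay above the list's median score of 16.3, and the others lay below it. The peak at 14189623 to 14190365 reached 2.05-fold (1.73 to 2.41), and those at 14143311 to 14143730 and 14170638 to 14171121 shared 1 score, 14.00, and 2.04-fold (1.72 to 2.39). The lowest were at 14185783 to 14186005 with 1.91-fold (1.60 to 2.26), 14146227 to 14146510 with 1.77-fold (1.48 to 2.11) and 14144505 to 14144956 with 1.76-fold (1.46 to 2.09). The intervals of all 8 weaker peaks lay below that of the strongest, which was picked by the same score, so this is no test.

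**Figure D1:**
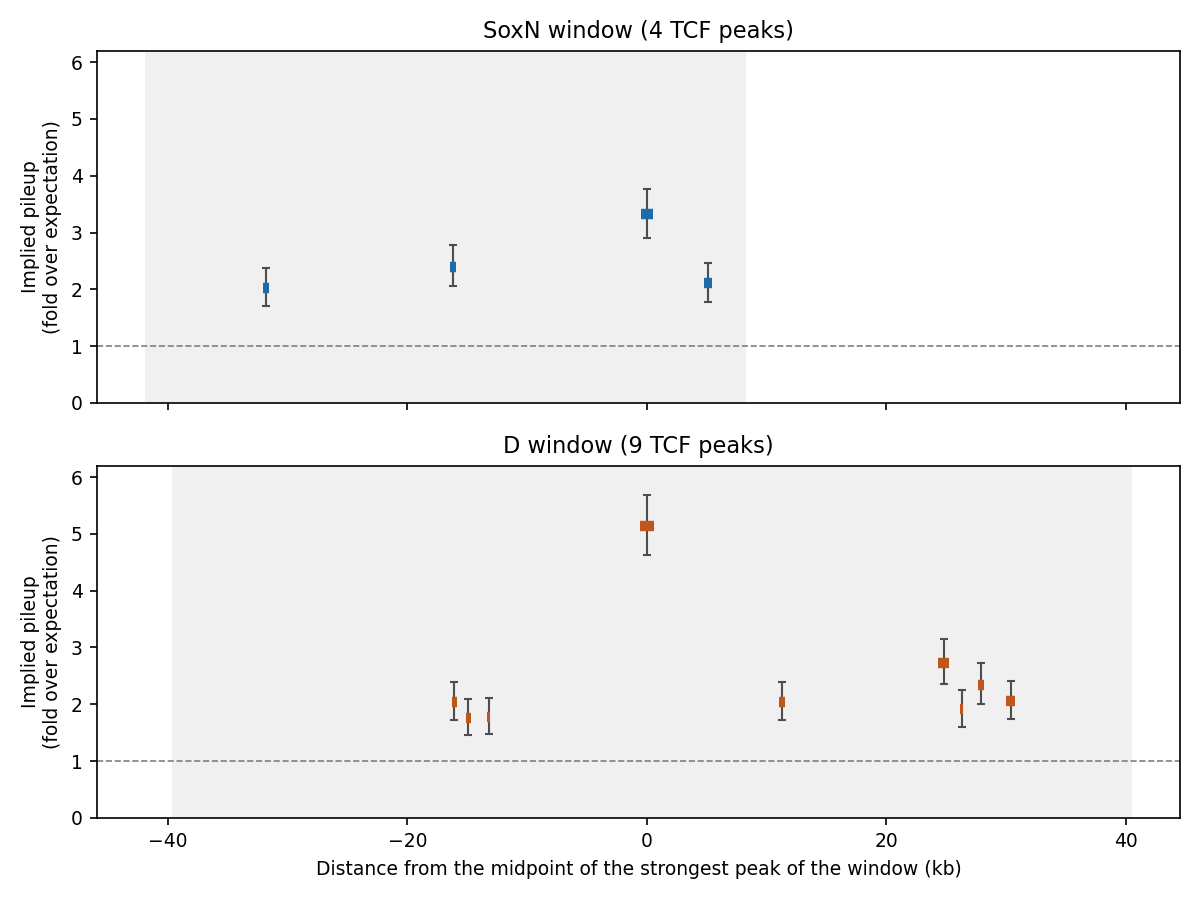
Implied TCF pileup along the SoxN window (top, 4 peaks) and the D window (bottom, 9 peaks), as fold over the fitted expectation (dashed line, 1), against distance in kb from the midpoint of the strongest peak of each window. Coloured bars span the called peaks, vertical lines are 95% exact Poisson intervals (counting error only) and shading marks the window. The strongest peak, picked by its score, reached 3.32-fold at SoxN and 5.13-fold at D, above the intervals of the other peaks of its window.

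The strongest peak of the D window had a higher pileup than the strongest peak of the SoxN window. The strongest pileup at D was 1.55 times that at SoxN (95% exact conditional binomial interval 1.31 to 1.83). The second peaks were closer, with 1.14 times as much at D as at SoxN (0.92 to 1.41), an interval that includes 1. Apart from the strongest peak, the folds ran from 2.02 to 2.40 at SoxN and from 1.76 to 2.73 at D. Within a locus, the strongest pileup exceeded the second 1.38 times at SoxN (1.13 to 1.69) and 1.88 times at D (1.57 to 2.24). The peaks set against each other here were picked by their score, so these ratios describe the list and are not tests. The maximum was taken over 4 peaks in 50 kb at SoxN and over 9 peaks in 80 kb at D. Among windows matched to each locus in length and number of peaks, the median best score was 47.3 for SoxN and 121 for D. The strongest peaks here scored 53.19 and 134.25. Whether their height differs apart from number of peaks and window length was not tested.

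Most peaks of both loci were ordinary for the list. The median score was 19.3 at SoxN and 14.0 at D, against 16.3 on 2L, 15.9 on 3L and 16.3 over all peaks. Of all peaks, 25.3% were among the 25% with the highest score, ties included, and 1 of the 4 SoxN peaks and 1 of the 9 D peaks were among them. Scores at or above the median of the list were held by 50.2% of all peaks, by 2 of the 4 at SoxN and by 3 of the 9 at D. An implied fold of at least 3 was found in 18.7% of the peaks on the scale, and again in 1 peak at each locus. The second D peak, at 32.94, lay just under the upper quartile of 33.4. With so few members, these counts do not set the loci apart from the list.

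The strongest peak was also the widest at each locus. It measured 1043 bp at SoxN, where the others measured 457, 526 and 674 bp. At D it measured 1165 bp, followed by 923 and 743 bp, and the narrowest D peak measured 223 bp. The median width was 600 bp at SoxN and 484 bp at D, against 500 bp over all peaks. Peaks wider than 1000 bp made up 19.9% of the list, and 1 peak at each locus was among them. Score and width come from the same calls and are not separate measures of TCF.

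**Figure D2:**
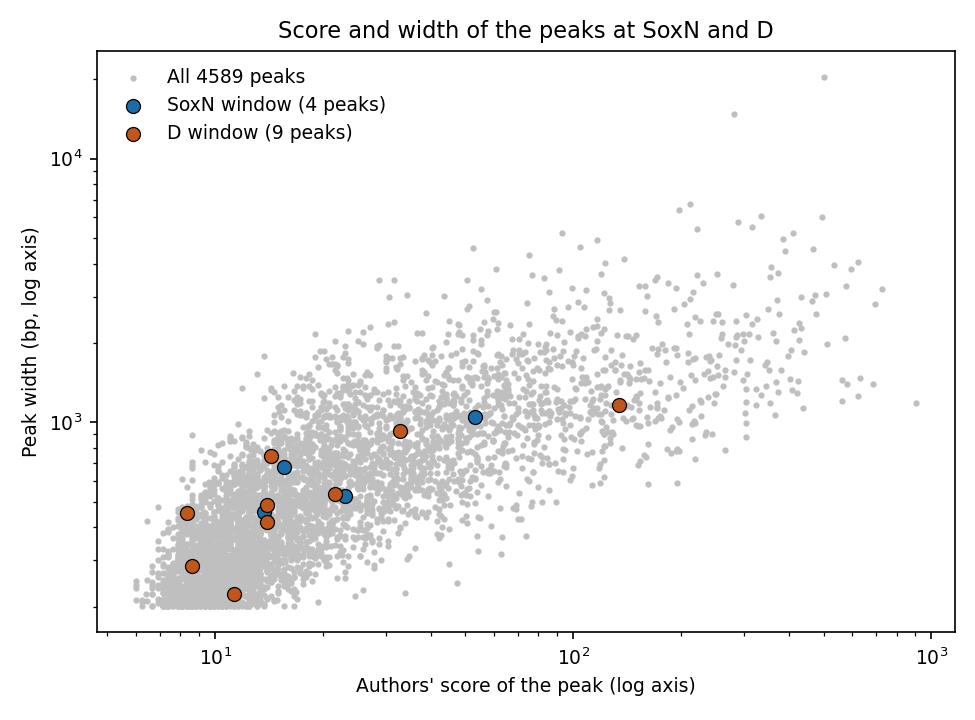
Authors' score (x, log axis, no unit) against peak width in bp (y, log axis) for all 4589 peaks (grey), the 4 peaks of the SoxN window (blue) and the 9 of the D window (orange). At each locus 1 peak, with scores of 53.19 and 134.25, stands to the upper right of the others, and the members lie within the cloud of all peaks.

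Within the windows, the spacing of the peaks differed in form. At SoxN the first 3 peaks stood apart, with gaps of 15.1 and 15.4 kb between them, and the fourth followed the strongest after 4.22 kb. Together with a peak just outside the window, the strongest and the fourth formed a group of 3 over 11.5 kb. At D the peaks formed a small group on each side of the strongest. A group of 3 spanned 3.20 kb at 14143311 to 14146510, with scores of 14.00, 8.35 and 8.60 and 36.1% of it covered. A gap of 12.5 kb led to the strongest peak, one of 10.5 kb to the single peak after it, and one of 12.8 kb to a group of 4 that spanned 6.41 kb at 14183960 to 14190365 (37.9% covered). That group held the second, the third and the fourth highest scores of the locus, 32.94, 21.56 and 14.32, and the 11.31 of its narrowest peak. In the whole list, 68.0% of peaks had another within 5000 bp, as did 2 of the 4 SoxN peaks and 7 of the 9 D peaks. Whether neighbouring calls are separate sites or pieces of 1 region was not tested, since the list holds no summits.

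Per length, the loci could not be told apart. The density was 80 peaks per Mb at SoxN (95% exact Poisson interval 21.8 to 205) and 112.5 at D (51.4 to 214), a ratio of 0.71 (95% exact conditional binomial interval 0.16 to 2.55). The order turned, to 1.07, when peaks under the median score of the list were left out, which left 2 peaks at SoxN and 3 at D. That value lies within the interval of the reported ratio. The arms held 42.5 peaks per Mb on 2L and 42.4 on 3L. These intervals treat peaks as independent, which grouped peaks are not. Peaks covered 2.70 kb of the SoxN window (5.40%) and 5.23 kb of the D window (6.54%), against 3.24% of 2L and 3.02% of 3L. When 2L, 2R, 3L, 3R and X were divided into 50 kb windows, 18.0% held at least 4 peaks, 15.2% had at least as much covered length and 21.7% had a best score at least as high as at SoxN. Among 80 kb windows, 8.12% held at least 9 peaks, 11.5% had at least as much covered length and 13.9% had a best score at least as high as at D. The median window held 1 peak at 50 kb and 2 at 80 kb. Among windows with the same number of peaks, the best score reached that of SoxN in 52 of 118 (44.1%) and that of D in 10 of 24 (41.7%), so for their number of peaks the strongest peaks were near the middle.

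**Figure D3:**
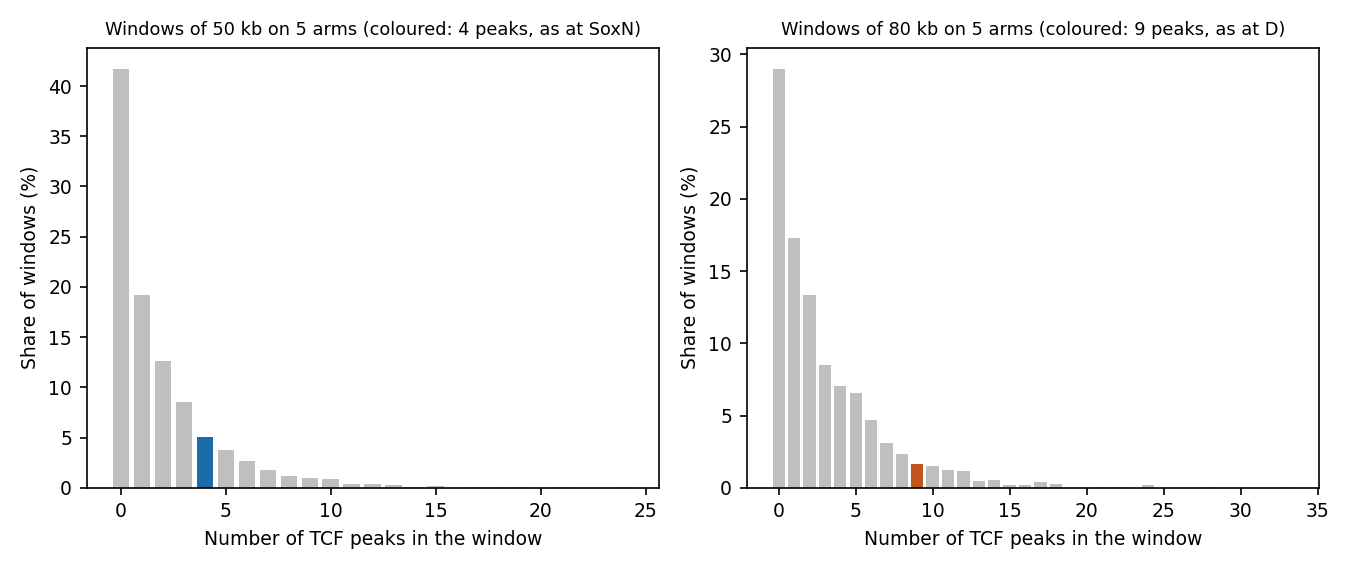
Share of windows (%) by number of TCF peaks, for 50 kb windows (left) and 80 kb windows (right) on 2L, 2R, 3L, 3R and X, with the bar at the count of the SoxN window (4 peaks) or the D window (9 peaks) coloured. Windows with at least as many peaks made up 18.0% and 8.12%.

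The SoxN window had a peak just beyond its edge, and the D window did not. On the right of SoxN a peak at 8851988 to 8852776, with a score of 26.21 and 2.51-fold, began 1.99 kb outside the edge and 4.73 kb after the last member, so the strongest SoxN peak, its neighbour and this peak formed a group of 3 over 11.5 kb. Its score would be the second highest of the locus. On the left, 69.0 kb without a peak came before the first member, and the peak beyond, at 8739984 to 8740759, had a score of 102.19, above every peak of the SoxN window. At D the nearest peaks outside were at 14069663 to 14070050, with a score of 15.28, and at 14221078 to 14221682, with a score of 39.29. They were separated from the members by 73.3 and 30.7 kb without a peak. The members nearest to an edge had their midpoints 3.08 kb inside it at SoxN and 10.0 kb inside it at D.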

How the data were processed

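The data were 1 peak list for 2 TCF ChIP and 2 input libraries of embryos labelled 0 to 8 h. Per the file headers, coordinates are on FlyBase release 5 and the feature source is MACS, a peak caller. The tools BWA and MACS2, the build BDGP5 and CASAVA, in versions 1.7.0.2 and 1.7.0.3, are named without roles per the submitters' processing notes. Not given in the sources used here are the calling threshold, the filters on reads and any pooling of replicates. The authors deposited 1 score per peak without a name or scale.

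To read the score's scale, an expected pileup between 1 and 400 was sought that makes scores equal to -log10 of the Poisson probability of a whole-number pileup or more. The best value, 71.73, gave a match within 0.01 for 4284 of 4589 peaks (93.4%), and the best of the values over 1% away gave 34.5%. Pileups are 1 lower if the tail leaves out the observed value. The search was tested on simulated data. Groups of peaks were chained over gaps of at most 5000 bp. Arm length was the end of the last peak, and incomplete end windows were left out.

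The members and lists were chosen with earlier results of these data known. All members are named, since neither window held over 15 peaks, with the 3 genes on each side of SoxN and D by order. The planned comparisons of proteins and promoters were not made, and sequences were not used here. Computation used SciPy 1.17.1 and NumPy 2.4.6, with tables in pandas 2.3.3, plots in matplotlib 3.10.9 and Python 3.11.15.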

Additional observations from a re-analysis of the deposited data

How the results depend on the processing

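Of 41 values under alternatives, 17 equalled the reported value at the printed precision and 24 changed. The ratio of the strongest pileups, SoxN to D, was 0.65 whether or not the pileup was 1 lower. Keeping the 50% of peaks with the higher score left 2 peaks at SoxN (3.14% covered, median score 38.1) and 3 at D (3.28%, 32.9), and keeping the 25% with the highest score left 1 at each (2.09% and 1.46% covered). The ratio of covered shares, SoxN to D, then went from 0.83 to 0.96 and 1.43, and that of peaks per kb from 0.71 to 1.07 and 1.60. More of the peaks left out lay at D, which held 9 peaks before these cuts against 4 at SoxN. Of all peaks in the list, the cuts kept 50.2% and 25.3%. With 1 peak left in each window, the 1.60 is set only by the window lengths of 50 and 80 kb. With windows extended by 10 kb on each side, SoxN held 5 peaks (4.98% covered) and D held 9 (5.23%), with ratios of 0.79 for peaks per kb and 0.95 for covered shares. With peaks closer than 1000 bp merged, D held 7 peaks, 8.63% was covered and the median score was 14.3, with ratios of 0.91 for peaks per kb and 0.63 for covered shares, since merging counts the gaps as covered. Merging within 200 bp and counting peaks that overlap a window left the numbers of peaks, the covered shares and both ratios as reported, and median scores were not recomputed there. No paired analysis was possible because each peak has a single score for all libraries together, which also means that leaving out a replicate was not possible. Without a known sequencing depth, a stretch without a peak cannot be read as free of TCF.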
